A study of Mus musculus with 28 samples.

Results

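The genes described here are those named as cytosolic translation initiation and elongation factors of the mouse, taken as every gene symbol that begins with Eif1 to Eif6 or with Eef1 or Eef2. Pseudogenes, the eIF2 alpha kinases, the eIF4E-binding proteins and the Eef1akmt methyltransferases were left out. This gave 60 genes of the 23350 symbols listed in the 28 tables, of which 57 were listed in all 28 and 3 (Eef1aknmt, Eif2c5 and Eif4a3l1) in the 12 alveolar tables only. They are called factors here for short. The set also holds Eef2k, the kinase of eEF2, the methyltransferases Eef2kmt and Eef1aknmt, and Eif2c5, which matches by letters but is annotated as a long noncoding RNA.

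Translation begins when eIF2, loaded with GTP and the initiator tRNA, joins eIF1, eIF1A, eIF5 and the large eIF3 scaffold on the small ribosomal subunit. The cap-binding complex eIF4F, built from eIF4E, eIF4G and the helicase eIF4A, brings that subunit to the mRNA, and eIF5B then joins the large subunit. In elongation eEF1A delivers aminoacyl-tRNAs, the eEF1B subunits recharge it with GTP, and eEF2 moves the ribosome by a codon. These proteins are made in all cells, and their demand rises with growth and secretion.

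The libraries came from wild-type C57BL/6 mice aged 8 weeks, from lung cells that had been sorted by flow cytometry. AEC1 and AEC2 are the flat and the surfactant-making epithelial cells of the alveoli, ILC2 are innate lymphocytes that release type 2 cytokines, and basophils are granulocytes of allergy. Untreated mice were compared with mice given papain, a plant protease allergen, through the nose at 50 µg a day, and with mice given papain plus FK506 (tacrolimus), which blocks calcineurin. FK506 was injected into the abdomen at 0.2 mg a day for 3 days, and, after a gap of 2 days, for 3 further days with papain. AEC1 and AEC2 had 2 libraries in each condition and ILC2 had 3. The basophils had 3 with papain, 3 with papain plus FK506 and 1 untreated, whose title names controls 1 and 2. A vehicle group for FK506 or papain was not analysed here. The labels do not say whether the libraries of a group came from separate mice, so p-values measure the spread between these libraries, which may be technical.

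The values are deposited CPM, read counts scaled by the library total, from a kit that reads transcript 3′ ends. Such values are not scaled by transcript length, and how well a 3′ end is captured differs between genes, so levels are compared between libraries and not ranked between genes. The listed values did not sum to a common total. They summed to 986818.7 to 992526.5 in AEC tables, 519768 to 636598 in ILC2 and 612433.8 to 672356.8 in basophils. Within ILC2 the untreated tables summed to 519768 to 547473 and the papain tables to 609483 to 613636. About 847773 to 975473 reads stood behind each AEC1 table and 1206896 to 1336080 behind 5 AEC2 tables. For the ILC2 tables and AEC2 untreated 1 the depth is unknown. All cell types gave RNA from 10 ng. In these bulk samples, fewer cells of a type and less RNA per cell cannot be told apart.

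Several libraries stood apart from their labels. The AEC2 tables untreated 2 and papain 2 were nearly one table: 99.1% of 5447 genes were above 0 in both or in neither, against at most 78.2% in any other pair of libraries, and 91.0% of the values above 0 in both lay within 1.1-fold of their median ratio, against at most 9.80%. For the translation factors, 42 were above 0 in both and 33 of these lay within that tolerance. The limma calls of the AEC2 comparisons are therefore given with and without this pair. Counts of factors whose groups do not overlap are given only with it. The AEC1 libraries held a sum of 784.2 to 1110.8 CPM over 10 AEC1 markers, below the 1731 to 4191.7 in AEC2, and 10056.3 to 26824.8 CPM over 10 fibroblast and smooth muscle markers, against 0.8 to 25.7 in AEC2. Single AEC1 markers went both ways. Ager was at 1384.0 to 3505.7 in AEC2 and 37.1 to 114.4 in AEC1. Pdpn was at 98.8 to 432.9 in AEC1 and at 0 in all 6 AEC2 libraries. Mcpt8, Fcer1a, Ms4a2 and Prss34, which define basophils, were listed at 0 in all 7 basophil libraries, while those libraries held 3937.4 to 12495.8 CPM over 20 genes that mark macrophages, monocytes and dendritic cells. These 4 belong to a list of 10 basophil markers. The list summed to 91.7 to 247.3 in the basophil libraries, with 7 to 9 of the 10 at 0, against 1 to 93 in ILC2. The ILC2 replicates 3, which carry another file code than replicates 1 and 2, held 3698 to 6629 CPM of AEC2 markers, against 0 to 548 in the other 6. They held 1684 to 8608 over the 20 macrophage, monocyte and dendritic cell genes, against 55 to 327. Untreated 3 also held 37948 of airway markers. The 12 ILC2 markers summed to 1588 in untreated 3, 4123 in papain 3 and 560 in papain plus FK506 3, against 3011 to 4328 in the other 6. The part of these other cell types in any result below was not tested.

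**Figure D1:**
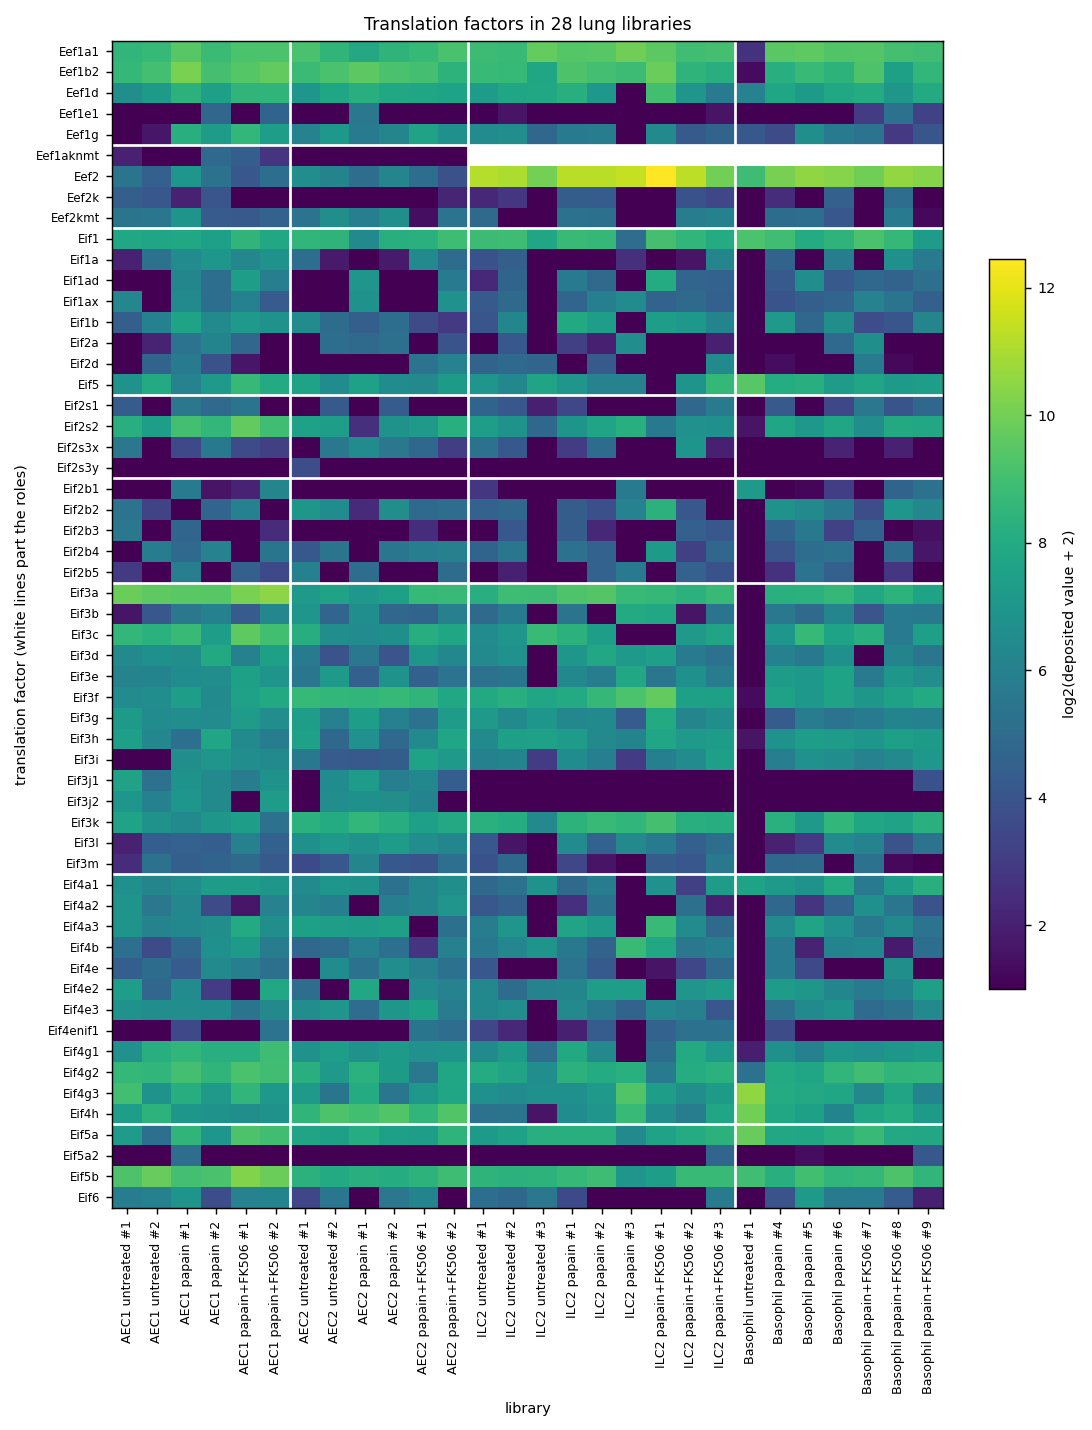
Level of each translation factor that was above 0 in at least 1 library (rows, grouped by role) in each of the 28 libraries (columns, grouped by cell type). Colour is log2 of the deposited value plus 2, and white cells are genes not listed in a table. Eef2 is bright in the ILC2 and basophil columns, and most rows are dark in the single untreated basophil library.

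Of the 60 genes, 56 were above 0 in at least 1 library and 12 in all 28: Eef1a1, Eef1b2, Eef2, Eif1, Eif2s2, Eif3f, Eif3h, Eif4g2, Eif4g3, Eif4h, Eif5a and Eif5b. Eef1a2, the eEF1A form of muscle and neurons, was listed at 0 throughout, as were Eif4e1b, an oocyte form of eIF4E, and Eif2c5 and Eif4a3l1 where listed. Eif2s3y, the Y-linked copy of the eIF2 gamma subunit, was at 11 in AEC2 untreated 1 and at 0 in the other 27 libraries.

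Presence varied even between libraries of a group. In a group, 6 to 21 factors were listed at 0 in one library while at 10 or more in another, which was 11.1% to 44.7% of the factors that reached 10, against 32.9% to 68.9% of all genes that did. Over all groups this happened to 39 of the factors and never to 17, among them Eef1a1, Eef1b2, Eif3a, Eif3k and Eif4b. It was most frequent in ILC2, with 34 factors. Among the 12 factors above 0 everywhere, the median ratio of the highest to the lowest library of a group ran from 1.32 in AEC1 with papain plus FK506 to 2.42 in ILC2 with papain plus FK506. Among these 12, Eif4h differed most between replicates, 40.0-fold in untreated ILC2.

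**Figure D2:**
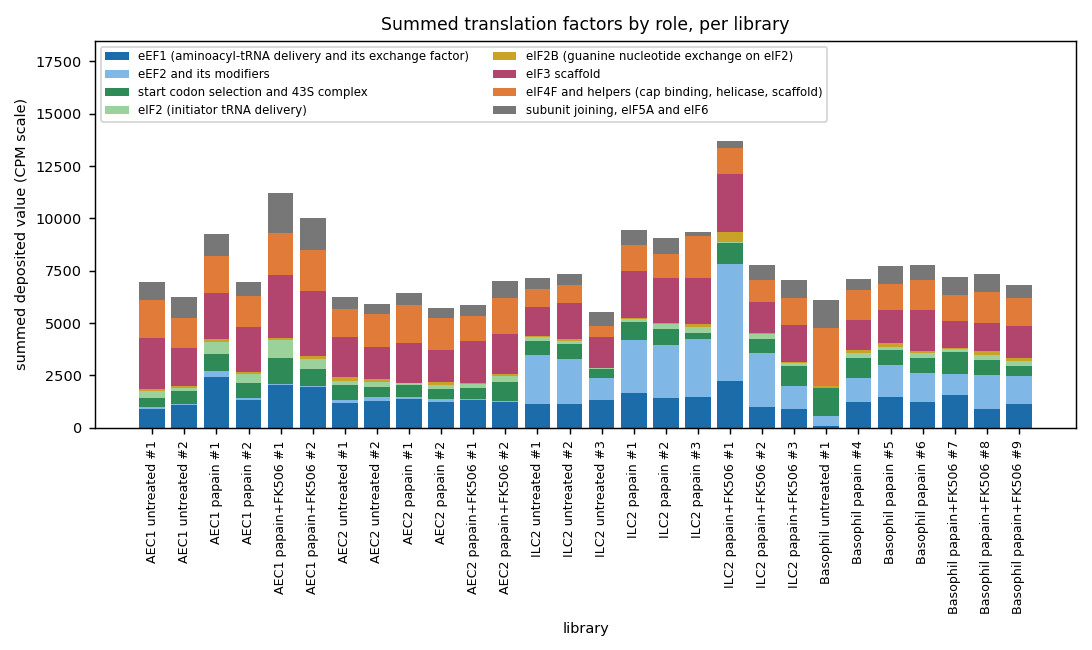
Deposited values summed over the translation factors of each role (colours), 1 bar per library. Sums range from 5536 to 13694, and the eEF2 block is tall in ILC2 and basophil bars and thin in AEC bars.

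Summed over all factors, AEC1 held 6944.9 and 6240.0 CPM untreated, 9252.9 and 6979.4 with papain, and 11219.7 and 10000.2 with papain plus FK506. The groups did not overlap, with untreated lowest, before or after division by the TMM scaling factors of the fits. The sums include Eef1g and Eif3i, which were named in choosing the set for their values in AEC1. These 2 add 152.7 and 124.0 to papain 2 and 0 to untreated 1. Without them the deposited sum of papain 2 would lie below that of untreated 1, so that separation is no test. Fibroblast and smooth muscle markers summed to 12042.6 and 10056.3, 26636.7 and 16880.2, and 26824.8 and 18921.0 in the AEC1 libraries, in the same order, so they were also higher after treatment. The sums over 6 mesothelial markers went the other way, at 5182.8 and 4472.7, 2544.4 and 3810.4, and 1609.2 and 2091.4. In AEC2 they were at most 2. The part of either was not tested. The AEC2 sums of the factors stayed between 5724.6 and 7015.5 in all 6 libraries, and between 5882.2 and 7015.5 in the 4 besides the near-identical pair. In ILC2 the sums were 7135, 7365 and 5536 untreated, 9424, 9061 and 9357 with papain, and 13694, 7754 and 7037 with papain plus FK506. On these deposited values the papain libraries lay above every untreated one. After TMM scaling they did not: the sums were then 8913.9, 9087.9 and 4975.7 untreated and 10283.7, 9359.0 and 6445.6 with papain. The FK506 libraries overlapped both groups on either scale. Basophil sums were 6097.9 untreated and 6829.7 to 7752.2 in the other 6 libraries.

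Eef2, the translocase of elongation, showed the widest gap between cell types. It lay between 12.4 and 126 CPM in the 12 AEC libraries, between 1032 and 5589 in the 9 ILC2 libraries and between 478.7 and 1522.3 in the 7 basophil libraries. No AEC value reached any ILC2 or basophil value. Of 52 factors at 10 or more in at least 6 libraries, Eef2 alone parted the 12 AEC libraries from the other 16 in this way, which 0.557% of 8265 genes did in the same direction. AEC tables and ILC2 and basophil tables carry different file codes and list different genes, so cell type and table cannot be told apart, and no test was made. Eif3j1 and Eif3j2, near-identical copies of the eIF3 j subunit whose reads may be split between them, went the other way. Eif3j1 was at 0 in 1 AEC library and at 19.1 to 193.0 in the other 11, but at 0 in all ILC2 libraries and 6 of 7 basophil libraries. Eif3j2 was at 0 in all 16 and above 0 in 9 of the 12 AEC libraries.

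**Figure D3:**
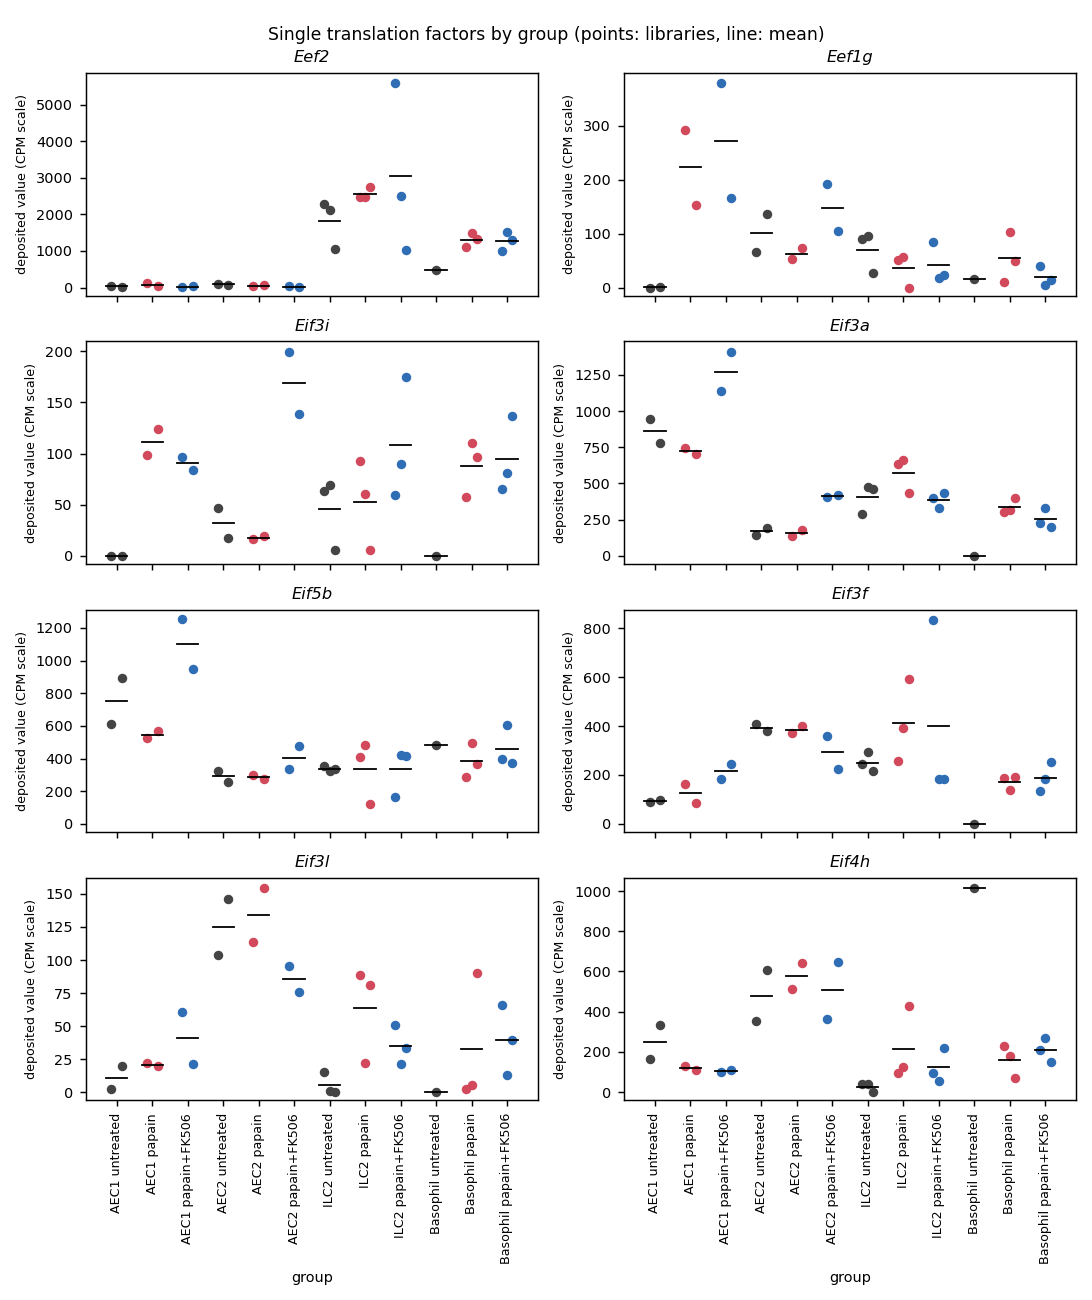
Deposited value of 8 translation factors in every library, by group (points, coloured by treatment; the black line is the group mean). Eef1g and Eif3i are at or near 0 in untreated AEC1, Eif3a and Eif5b are higher in AEC1 than in AEC2, and Eif3l and Eif4h are higher in AEC2.

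AEC2 and AEC1 were compared over all 3 conditions, 6 libraries each, and this comparison gave the largest number of differences not resting on a single library. Of 54 factors tested, 5 passed (9.26%), against 12.7% of 9841 genes, and by direction 3 were higher and 2 lower, against 4.43% and 8.25% of genes. The share of factors was near the background. They were 3 of the eIF3 scaffold's subunits (Eif3f, Eif3l and Eif3a), the helicase cofactor Eif4h and the subunit-joining factor Eif5b. Fibroblast and mesothelial marker sums separate the 2 kinds of library in the same way, as given above, and their part was not tested.

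Eif3a, the largest eIF3 subunit, was at 146, 189.3, 135.3, 177.5, 407.9 and 417.6 CPM in AEC2 and at 948.4, 778.6, 741.2, 700.2, 1135.4 and 1410.7 in AEC1. The groups did not overlap, and within AEC2 both FK506 libraries were highest. The difference was −1.96 ± 0.26 on the log2(CPM + 2) scale (SE), with a limma adjusted p of 0.00064. Eif5b was at 257.8 to 474.8 in AEC2, with a median of 312.6, and at 527.3 to 1255.6 in AEC1, with a median of 751.5. These groups did not overlap either, and the difference was −1.15 ± 0.27 with a limma adjusted p of 0.018.

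Eif4h, which stimulates the eIF4A helicase, was at 353, 607.9, 510.7, 643.3, 366.0 and 648.8 in AEC2 and at 166.1, 334.7, 130.2, 111.7, 98 and 110.9 in AEC1. As deposited, all AEC2 libraries were above all AEC1 libraries. After TMM scaling within each cell type they were not, with AEC1 untreated 2 at 360.8 and AEC2 papain plus FK506 1 at 358.0. The difference was 1.90 ± 0.36 on the log2 scale, with a limma adjusted p of 0.0058. Eif3l was at 75.4 to 154.5 in AEC2 and at 2.2 to 60.7 in AEC1, a difference of 2.58 ± 0.63 with a limma adjusted p of 0.022. Eif3f was at 226.2 to 407 in AEC2 and at 85.1 to 244.2 in AEC1, so 1 AEC2 library (papain plus FK506 2) lay inside the AEC1 range. It was higher by 1.48 ± 0.34, with a limma adjusted p of 0.017.

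Without the 2 near-identical AEC2 tables, 4 of these 5 still passed and Eif3l did not (2.42, limma adjusted p = 0.072). The eIF2 beta subunit Eif2s2, at 3.9 to 285.9 in AEC2 and 162.2 to 827.3 in AEC1, then passed as lower. Leaving out AEC2 papain plus FK506 1 left 2 of the 5, Eif3a and Eif4h, with the other 3 at limma adjusted p of 0.051 to 0.055. Leaving out AEC1 papain 1 or AEC1 papain plus FK506 2 also cost the call of Eif3l, and leaving out AEC1 papain plus FK506 1 that of Eif3f.

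**Figure D4:**
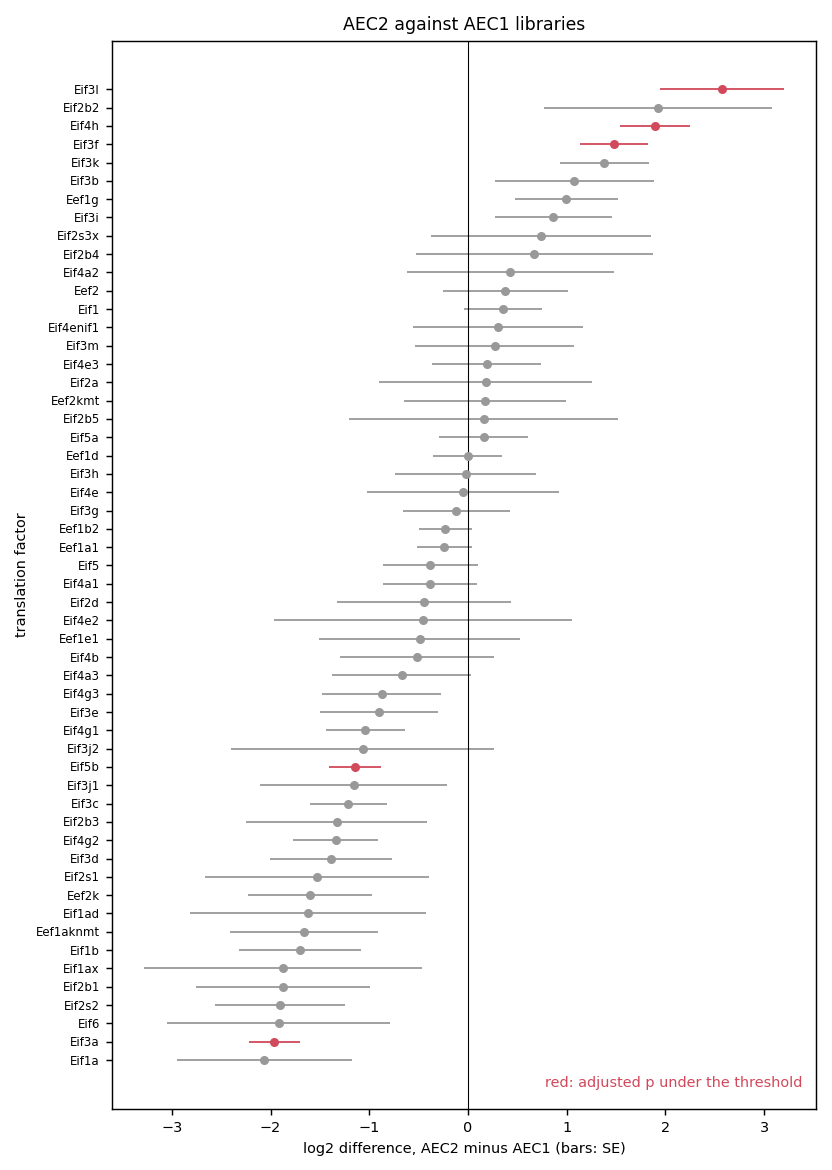
Difference between AEC2 and AEC1 on the log2(CPM + 2) scale for each of the 54 translation factors tested, with its standard error, sorted. The 5 in red passed the adjusted threshold of 0.05: Eif3l, Eif4h and Eif3f on the higher side, Eif3a and Eif5b on the lower.

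Many mRNAs of the translation machinery begin with a C and a run of pyrimidines, the TOP motif read by the mTOR pathway. The RefSeq transcript starts of the 5 factors are shown here because these genes differed between the libraries labelled AEC2 and AEC1. Each sequence covers 20 bases on either side of the start (GRCm38.p6). Capitals mark an unbroken run of C or T that begins with C at the first base.
Eif3a, chr19:60790674-60790713, minus strand: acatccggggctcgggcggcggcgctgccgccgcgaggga
Eif5b, chr1:37997990-37998029, plus strand: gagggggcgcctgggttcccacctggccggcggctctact
Eif4h, chr5:134639390-134639429, minus strand: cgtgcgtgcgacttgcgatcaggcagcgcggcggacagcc
Eif3l, chr15:79075203-79075242, plus strand: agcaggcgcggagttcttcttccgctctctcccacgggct
Eif3f, chr7:108934395-108934434, plus strand: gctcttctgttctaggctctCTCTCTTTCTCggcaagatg
Of the 5, Eif3f alone begins with C and at least 4 more pyrimidines. With the run beginning within 2 bases of the start, as in a looser count below, Eif3l also held it. Of the 48 factors in the RefSeq promoter table, 3 did (6.25%: Eif3f, Eif2s3x and Eif2c5), against 3.01% of 27025 genes, and without the noncoding Eif2c5 it was 2 of 47 (4.26%). Only the strand with the sequence of the transcript was read. The count was also made in 2 looser ways: with the run beginning within 2 bases of the start it held 11 of 48 (22.9%) against 10.6%, and with the further condition that no C stood just before the run, 10 of 48 (20.8%) against 9.91%. A match is a description of letters and not of regulation, and the other 12 factors were not in the table.

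Eef1g and Eif3i were named when this set of genes was chosen because of their values in untreated AEC1, so those are a description with no test. Eef1g, the gamma subunit of the eEF1B exchange complex, was at 0 and 1.2 CPM in untreated AEC1, at 292.2 and 152.7 with papain, and at 378.1 and 166.3 with papain plus FK506. Eif3i, a small eIF3 subunit, was listed at 0 in both untreated AEC1 libraries, at 98.5 and 124.0 with papain and at 96.9 and 83.7 with papain plus FK506. In untreated AEC2, by contrast, Eef1g was at 65 and 137.0 and Eif3i at 47 and 17.7. Of the other eEF1 genes in untreated AEC1, Eef1b2 was at 397.3 and 522.1, Eef1a1 at 373.7 and 400.2, and Eef1d at 99.9 and 150.7. Eef1e1 and Eef1a2 were listed at 0 in both libraries, like Eif3i. Eif1ad, related to the start-codon factor eIF1A, had a like pattern to Eef1g and Eif3i: it was listed at 0 in both untreated AEC1 libraries, at 75.2 and 32.8 with papain and at 163.4 and 57.8 with papain plus FK506.

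In AEC1, papain against untreated gave 0 of 53 factors past the limma threshold, against 0% of 8178 genes. An unadjusted limma p under 0.05 was found for 4 factors (Eef1g, Eif3i, Eif1ad and Eif1a), against 761 of the 8178 genes. On recovered read counts, edgeR called Eef1g, and DESeq2 called Eef1g, Eif3i and Eif1ad. Over all genes DESeq2 called 204 higher and 101 lower. The edgeR counts over all genes are given further below. The calls of Eef1g and Eif3i repeat the values named in choosing the set and are no test. Eif1ad, at 0 in both untreated libraries, entered the fits only through the treated ones, where it is high, so its call is partly fixed by the filter. The groups did not overlap for 20 factors (37.7%), against 33.4% of genes, and for 18 of 51 without Eef1g and Eif3i (35.3%). The 5 eEF1 genes tested were all on the higher side, as were 35 of the 53 factors, but none passed. Eef1g was named in choosing the set. Eef1e1, at 0 in both untreated libraries, entered only through treated ones and could not be lower. The median difference was 0.71 over the factors and 0.16 over all genes tested. Eef1d, another exchange subunit, was at 99.9 and 150.7 untreated and 328.2 and 178.4 with papain.

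With papain plus FK506 against untreated AEC1, 0 of 53 factors passed, against 0.0245% of genes. At an unadjusted limma p under 0.05 were 6 factors, 4 of them besides Eef1g and Eif3i, against 957 of the 8178 genes. EdgeR again called Eef1g, and DESeq2 called Eef1g, Eif3i, Eif1ad, Eif5a and Eif2s2. Over all genes DESeq2 called 272 higher and 185 lower, against 2 higher and 0 lower in limma. For Eef1g, Eif3i and Eif1ad the call rests on the same untreated values and is no test. Eif5a and Eif2s2 were above 10 in both untreated libraries. Without Eef1g and Eif3i, values did not overlap for 30 of 51 factors (58.8%), against 39.3% of genes, and 26 of the 30 were higher with treatment (51.0% of the 51), against 24.9% of genes. After TMM scaling these were 24 (47.1%) and 19 (37.3%), against 39% and 23.1%. Of the 51, 6 were under 10 in both untreated libraries and so entered only through the treated ones. Eif5a, which eases ribosomes past proline-rich stretches, was at 157.1 and 34.5 untreated and at 599.8 and 495.4 with papain plus FK506, a difference of 2.71 ± 0.76 with a limma adjusted p of 0.31. Eif2s2 was at 291.8 and 162.2 untreated and 827.3 and 482.4 with papain plus FK506, higher by 1.40 ± 0.46 with a limma adjusted p of 0.32. Neither passed limma's threshold. FK506 added to papain gave 0 of 53 factors past the limma threshold, against 0% of genes. The count at an unadjusted limma p under 0.05 was also 0, against 496 of the 8178 genes. Neither edgeR nor DESeq2 called a factor, that is, 0 each, while DESeq2 called 25 genes higher and 59 lower. The smallest p belonged to Eif5b, at 527.3 and 565.9 with papain and 1255.6 and 950.7 with FK506 (0.85 ± 0.39, limma adjusted p = 0.83), then to Eif5 and Eif3c. Both comparisons with untreated mice share the same 2 untreated libraries.

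In AEC2, 0 of 49 factors passed limma, against 0% of 6719 genes, in papain against untreated, FK506 added to papain, and both against untreated. In that order, 1, 5 and 3 factors had an unadjusted limma p under 0.05, against 15, 284 and 307 of the 6719 genes. EdgeR and DESeq2 were not run on AEC2. With FK506 added to papain, deposited values did not overlap for 25 of 49 factors (51.0%), against 27.4% of genes. Of the 25, 14 were higher and 11 lower. After TMM scaling it was 24 (49.0%), against 27.5%. For papain plus FK506 against untreated, it was 18 on deposited values (36.7%), against 29.9% of genes. For papain against untreated it was 7 (14.3%), against 1077 of the 6719 genes. Both the untreated and the papain group hold a table of the near-identical pair, and the non-overlap counts were not made without it. Without the pair each of these groups has 1 library, assumed to vary like the FK506 libraries, and again 0 factors passed limma in the 3 comparisons. Eif2s2, with the smallest p for papain against untreated, was at 187 and 170.1 untreated and at 3.9 and 115.8 with papain, so the 2 papain libraries differed 29.7-fold. Eif4a3, the RNA helicase of the exon junction complex, was at 179 and 171.6 untreated, 160.9 and 181.6 with papain, and 0 and 35.6 with papain plus FK506. It was lower in both FK506 libraries, but its limma adjusted p was 0.91 against papain and against untreated. Against untreated the difference was −4.48, and −4.63 without the pair (limma adjusted p = 0.50). Leaving out papain plus FK506 2, the library at 35.6, gave −6.56 with a limma adjusted p of 0.042, past the threshold, while over all alternatives that p ran from 0.042 to 0.98. Eif2d, a tRNA-delivering factor outside the eIF2 complex, was at 0 in all 4 libraries without FK506 and at 38.9 and 66.3 with it, and Eif4enif1, the eIF4E transporter, at 0 and then at 41.9 and 32.3. Those 2 had the same limma adjusted p of 0.91, and 0.37 against untreated and 0.34 against papain without the pair. Both entered the fit only through the FK506 libraries.

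**Figure D5:**
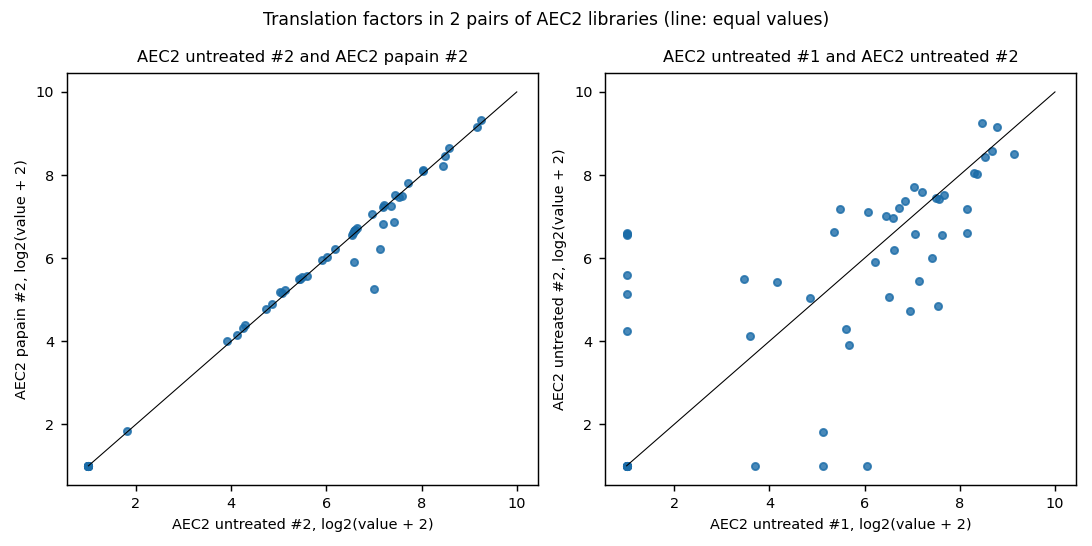
Translation factors in AEC2 untreated 2 against papain 2 (left) and in untreated 1 against untreated 2 (right), as log2(value + 2), with the line of equal values. On the left 33 of the 42 factors above 0 in both lie within 1.1-fold of their median ratio and the other 9 lie lower in papain 2, while on the right replicates of 1 group scatter and several factors are at 0 in 1 of the 2 libraries.

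The responses to papain in the libraries labelled AEC2 and AEC1 were set against each other. None of 54 factors differed between AEC2 and AEC1 in that response past the limma threshold, against 0% of 9841 genes. At an unadjusted limma p under 0.05 were 4 factors, against 454 of the 9841 genes. These 4 were Eif2s2, Eif1a and the 2 named in choosing the set, Eef1g and Eif3i. The AEC2 side holds both tables of the near-identical pair. Without them, with 1 AEC2 library untreated and 1 with papain, 0 factors passed as well. Neither edgeR nor DESeq2 was run for it.

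In ILC2, 0 of 48 factors passed limma in papain against untreated (0% of 6271 genes). It was 0 with FK506 added to papain (0.0159%) and 0 in both against untreated (0%). The counts with an unadjusted limma p under 0.05 were 3, 0 and 2, against 234, 262 and 250 of the 6271 genes. The ILC2 values are rounded, so count models could not be run. The 3 deposited papain values did not overlap the 3 untreated ones for 11 factors (22.9%), against 7.34% of genes. Of the 11, 8 were higher (16.7% of the factors tested), against 4.31% of genes. After TMM scaling, as in the fit, 6 factors did not overlap (12.5%), against 6.78% of genes, and 3 were higher (6.25%), against 2.65%. The median difference over the factors was 0.27 with that scaling and 0.53 without it. Eef2 was at 2296, 2126 and 1049 untreated and at 2478, 2482 and 2746 with papain, but its scaled values overlapped, at 2868.4, 2623.3 and 942.8 against 2704.1, 2563.6 and 1891.6. Eif4h was at 38, 40 and 1 and then at 94, 125 and 430 (3.04 ± 1.17, limma adjusted p = 0.99). Eif3l was at 15, 1 and 0 and then at 89, 22 and 81 (3.35 ± 1.57, limma adjusted p = 0.99). Replicate 3, which carries the other file code, is listed last in each, and for Eef2 and Eif4h it was the lowest untreated and the highest papain value as deposited. Eef1d was at 153, 211 and 232 untreated and at 298, 136 and 0 with papain (−2.28 ± 1.04, limma adjusted p = 0.99), and these groups overlapped. Replicates 1 and 2 alone also gave 0 factors. With papain plus FK506, replicate 1 stood apart, with Eef2 at 5589 against 2505 and 1032, and Eef1a1 at 756 against 489 and 530.

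The single untreated basophil library had 18 of 57 factors above 0, against 41 to 48 in the other 6 basophil libraries, and 2002 genes above 0 against 6401 to 7894. Its eIF3 subunits summed to 1.5 CPM, against 1288.7 to 1931.1 in the other 6, and Eef1a1 was at 4.3 against 493.0 to 782.7. It held instead 1475.6 of Eif4g3, 1015.2 of Eif4h, 872.8 of Eif5a and 717.8 of Eif5. With papain, 22 of 43 factors passed limma against this library (20 higher and 2 lower), while 23.1% of 5853 genes did, 21.1% higher and 2% lower. Every one of these calls rests on that library, whose spread is assumed to be like that of the others, so they compare that library with papain rather than the conditions.

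Of the 43 factors tested, 31 were under 10 in the untreated library and so entered through the treated libraries, where they are high, and 18 of the 20 higher calls were among these. The same holds for 4624 of the 5853 genes and for 1162 of their 1234 higher calls. Among the genes at 10 or more in the untreated library, 2 of 12 factors passed as higher (16.7%), against 5.86% of 1229 genes. The median difference was 3.90 over the factors and 3.05 over all genes tested. The calls by role are therefore a description: 9 of 12 eIF3 subunits, 5 of 10 eIF4F genes and helpers, 2 of 4 eEF1 genes, and Eef2 were higher. The largest differences were those of Eif3a (0 untreated, then 302.5, 316.4 and 397.2 with papain), Eef1b2 (0.5, then 285.9, 433.7 and 332.7), Eef1a1 (4.3, then 735.9, 782.7 and 637.5), Eif3k, Eif3c and Eif3e, the last 3 listed at 0 in the untreated library. Eif4h was at 230.5, 179.7 and 69.5 with papain, a difference of −2.43 ± 0.74 with a limma adjusted p of 0.028. Eif4g3, a scaffold of eIF4F, was at 264.1, 242.0 and 211.7, a difference of −2.23 ± 0.73 with a limma adjusted p of 0.037. FK506 added to papain gave 0 of 43 factors past the limma threshold (0% of genes), and no count model was run. With an unadjusted limma p under 0.05 there was 1 factor, against 354 of the 5853 genes. That 1 was Eif4g3, at 75.9, 205.8 and 69.3 with FK506, below every papain value (−1.24 ± 0.51, limma adjusted p = 0.80). It was 1 of 3 factors whose groups did not overlap (6.98%), against 11.4% of genes.

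Other genes of the pathway were looked at as 3 lists: 7 eIF4E-binding proteins and eIF2 alpha kinases, 28 other cytosolic factors and regulators, and 10 mitochondrial translation factors. None passed limma in the treatment comparisons within AEC1, AEC2 or ILC2, where 5 to 6, 21 to 23 and 7 to 8 of them were tested in AEC1 and AEC2, and 2, 20 and 4 in ILC2. Pabpc1, the poly(A)-binding protein that links mRNA tails to eIF4G, was lower in AEC2, at 145.4 to 462.5 against 489.0 to 1606.8 in AEC1, and was 1 of 26 tested in its list. Mtrf1l, a mitochondrial release factor, was listed at 0 in all 6 AEC1 libraries but in only 1 of the 6 AEC2 libraries, with a median of 28.9 there, and its limma adjusted p was 0.049, the only one of 9 tested in its list past the threshold. It entered the fit only through AEC2, where it is high, so that call is partly fixed by the filter. Against the untreated basophil library, 6 of 25 genes of these lists passed as higher with papain (24.0%), near the 21.1% of all genes, among them Pabpc1, Ddx3x, Abcf1 and Pdcd4, and none as lower.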

How the data were processed

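RNA from sorted mouse lung cells was read at transcript 3′ ends with a Lexogen QuantSeq kit from 10 ng, per the labels' protocols. Tools and builds listed without a role in the submitters' processing notes are featureCounts 1.6.0, STAR 2.7.0c, GRCm38.p6 and mm10. Strand and multi-mapping settings are not given in the sources used here. The authors deposited CPM values for AEC1, basophils and 5 AEC2 libraries. For ILC2 and AEC2 untreated 1 the deposited values are whole numbers, treated as a score, that is, CPM rounded by the authors. Reads were recovered from AEC steps (100% of low values within 0.1 read of a whole number), and edgeR and DESeq2 were run on AEC1 reads as alternatives.

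Values were scaled by TMM (edgeR 4.0.16). Genes at 10 or more in at least 2 (AEC) or 3 (ILC2, basophil) libraries were kept, and limma 3.58.1 was fitted to log2 of the scaled value plus 2 (eBayes with trend, R 4.3.3), two-sided, adjusted by Benjamini-Hochberg over all genes at 0.05, in 13 comparisons. ILC2 fits had a file-code term. Fold changes on this scale understate those of low genes. DESeq2 was 1.42.0. The fits were tested on simulated data. Named factors were those passing (at most 12, and 6 in a direction), or the 3 of smallest p, and Eef1g and Eif3i. Eif1ad, Eif5a, Eif2s2, Eif3j1, Eif3j2, Eef1d and Eef1e1 in AEC1, and Eef2 and Eif5 as levels, were chosen after their values were seen. The genes and lists were chosen with earlier results of these data known. The start-motif count was first made with the no-C condition, and that condition was then dropped for a simpler definition, so all counts made are given.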

Additional observations from a re-analysis of the deposited data

How the results depend on the processing

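Counts of factors and genes are of calls by adjusted p, main value first. In AEC1, papain against untreated called 0 genes higher and 0 lower. With a pseudocount of 10 it called 1 higher. Robust eBayes called 13 higher, with 1 factor. EdgeR called 15 higher, with 1 factor, and DESeq2 204 higher and 101 lower, with 3 factors. Papain plus FK506 against untreated called 2 higher and 0 lower. These became 0 with a pseudocount of 1, 15 and 1 (1 factor) with 10, 29 and 9 (1 factor) with robust eBayes, 26 and 3 (1 factor) with edgeR, and 272 and 185 (5 factors) with DESeq2. FK506 against papain went from 0 to 25 higher and 59 lower with DESeq2. Eef1g was the 1 factor in each case, and its untreated values were used in choosing the set. In AEC2, papain plus FK506 against untreated went from 0 to 3 higher and 3 lower with robust eBayes. In ILC2, all-gene counts of 0 or 1 became at most 8: papain against untreated 1 and 1 with a pseudocount of 10, 2 and 1 without scaling, 2 lower with median-of-ratios scaling, 8 lower with robust eBayes, 2 lower with the replicate block by titles and 1 lower by file headers, and 1 higher without the file-code term. FK506 against papain, 1 higher and 0 lower, had 2 lower with a pseudocount of 10, 1 lower without scaling and with the block by headers, 3 higher and 2 lower with robust eBayes, 0 higher and 1 lower without the file-code term, and 0 higher in replicates 1 and 2 only. FK506 against untreated had 1 lower with a pseudocount of 10, without scaling, with median-of-ratios scaling and with the block by headers, and 1 higher and 2 lower with robust eBayes. No ILC2 factor passed in any of these. ILC2 factors whose papain and untreated values did not overlap went from 11 to 6, and those higher from 8 to 3, on TMM-scaled values. In basophils, papain against untreated called 1234 higher and 117 lower. These became 781 and 179 with a pseudocount of 10, and the lower count became 65 without the filter, where 0 factors were lower, 185 without scaling and 192 with median-of-ratios scaling. FK506 against papain went from 0 to 7 and 4 with a pseudocount of 10, and to 6 and 2 with robust eBayes. AEC2 against AEC1 had 2 factors lower, which became 4 with a pseudocount of 10 and 5 with robust eBayes. The cause was not tested.

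With 1 library left out, factors called higher in AEC2 against AEC1 ranged from 1 to 3 and lower from 1 to 4. In AEC2, papain plus FK506 against untreated had 0 to 1 factor lower (Eif4a3, without papain plus FK506 2), 0 to 2 genes higher and 0 to 3 lower, FK506 against papain 0 to 1 lower, and papain against untreated 0 to 1 in each direction. AEC1 with papain plus FK506 had 0 to 1 genes higher, and the difference in response between AEC2 and AEC1 0 to 1. Basophil papain against untreated had 1 to 3 factors and 72 to 234 genes lower, and FK506 against papain 0 to 4 higher and 0 to 1 lower. ILC2 papain against untreated had 0 to 2 lower, and FK506 against papain 0 to 1 in each direction.

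Signs turned for Eef1g, Eif3i, Eef1d and Eif1 in comparisons where none of them passed. With 1 library left out, Eef1g ranged from −0.43 to 0.63 for FK506 against papain in AEC1, and from −0.031 to 0.91 for papain plus FK506 against untreated in AEC2. In ILC2, Eif3i ranged from −0.90 to 0.77 for papain against untreated, and was 0.12 without scaling and 0.25 with the block by headers. For FK506 against papain in ILC2, Eef1d ranged from −0.22 to 2.66, Eef1g from −0.34 to 1.68 and Eif3i from −0.17 to 2.42, and in replicates 1 and 2 only Eif1 was −0.052, Eef1g −0.62 and Eif3i −0.20. For papain plus FK506 against untreated there, Eif3i ranged from −0.30 to 2.30, and was −0.23 in replicates 1 and 2 only. In basophils, Eif3i ranged from −0.24 to 0.29 for FK506 against papain.

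Same-numbered samples deviated together only weakly (correlations from −0.02 to 0.02 in AEC1 and 0.05 to 0.23 in ILC2, and up to 0.45 in AEC2, from the near-identical pair), so the numbers were not taken to pair samples. The headers number ILC2 papain 2 and papain plus FK506 2 as 3, unlike the titles, and give replicates 3 no number. By headers the 7 same-numbered pairs, replicates 3 as 1 number, also correlated at 0.05 to 0.23. The replicate block, by titles or by headers, changed no factor's call. Leaving out both near-identical AEC2 tables, the block by headers and the TMM-scaled overlap counts were chosen after seeing the data. Without scaling, the median of all genes moved by up to 0.17 (ILC2, papain against untreated). Low depth limits AEC values near 1 read.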

Other observations

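In the near-identical AEC2 tables, the factors that did not match were all on one side. Of the 42 factors above 0 in both, 9 lay more than 1.1-fold from the median ratio of 1.06, and all 9 were lower in papain 2. Eif4a1, the main eIF4A helicase, was at 126.2 in untreated 2 and 36.1 in papain 2. Eef1g was at 137.0 and 73.1, Eif3j1 at 93.1 and 57.5, and Eif2s2 at 170.1 and 115.8. Over all genes above 0 in both, 484 lay outside that tolerance, 435 lower and 49 higher in papain 2.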
